A study of Homo sapiens with 2 samples.

Results

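BCAR3 is a gene of chromosome 1 (gene 8412, hg38 positions 93561741 to 93848151, 286 kb, transcribed towards lower coordinates). Its locus was taken as the RefSeq span plus 200 kb on both sides, chr1:93361741-94048151, and held 35 of the 51556 DNase hotspots of Saos-2 and 26 of the 63388 of U2OS. Saos-2 and U2OS are established human cell lines from osteosarcoma, and no treatment, clone or passage is named for either. DNase-seq marks DNA that the nuclease DNase I can cut because nucleosomes do not cover it. A hotspot is a region that the authors called as enriched in cuts at a false discovery rate of 0.05. Nuclei were digested for 3 min at 37 °C and libraries were amplified with 8 to 10 PCR cycles, per the labels. With 1 library per line there is no replicate spread and no test, and each difference below is one between these libraries. BCAR3 was selected on measured values of these lists: it was chosen by its hotspot bases near the gene ends in Saos-2 and their absence in U2OS. That contrast, and every other value from the same lists, is given as a description.

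BCAR3 is an adaptor protein of the NSP family, with an SH2 domain and a domain that resembles exchange factors and binds Cas scaffold proteins such as BCAR1 (p130Cas) and NEDD9. The complexes act with SRC-family kinases and focal adhesion kinase at cell adhesions, in adhesion and cell movement. The gene was found in a screen for genes that make breast cancer cells grow in the presence of anti-oestrogens. Like many long genes, it has several transcription starts, and accessible sites inside introns of such genes are often enhancers.

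The RefSeq table of start sequences lists 10 starts for BCAR3. They fall at the outer end (93848151, 93847219 and 93845910), at 93775386, in an inner cluster 166 to 167 kb into the gene (93681837, 93681370 and 93680854), and further in at 93614097, 93595497 and 93585162. Each start has a window of 300 bp, from 250 bp before to 50 bp after. In Saos-2 hotspots overlapped the windows of the 3 outer starts and of 93680854. In U2OS the only one of the 10 windows with a hotspot was that of 93680854. The 3 outer windows are printed because the difference between the lines lies in them, and that of 93680854 because it was called in both. The window of 93681837 is added because it was called in neither line but lies in the same cluster as the shared start. The sequences are from RefSeq (GRCh38.p14, minus strand), 5′ to 3′. Capitals mark matches, on either strand, to 8 short motifs: AP-1 (TGANTCA), RUNX (TGTGGT), TEAD (GGAATG), GC box (GGGCGG), ETS (CCGGAAGT), NRF2 (TGACNNNGC), CCAAT box (CCAAT) and CREB (TGACGTCA).
Start 93848151, Saos-2 only, chr1:93848102-93848401: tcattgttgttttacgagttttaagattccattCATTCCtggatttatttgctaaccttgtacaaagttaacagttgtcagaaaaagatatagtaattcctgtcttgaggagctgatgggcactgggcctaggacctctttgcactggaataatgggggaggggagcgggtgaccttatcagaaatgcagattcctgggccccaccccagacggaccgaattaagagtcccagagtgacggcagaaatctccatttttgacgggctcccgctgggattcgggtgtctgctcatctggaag
Start 93847219, Saos-2 only, chr1:93847170-93847469: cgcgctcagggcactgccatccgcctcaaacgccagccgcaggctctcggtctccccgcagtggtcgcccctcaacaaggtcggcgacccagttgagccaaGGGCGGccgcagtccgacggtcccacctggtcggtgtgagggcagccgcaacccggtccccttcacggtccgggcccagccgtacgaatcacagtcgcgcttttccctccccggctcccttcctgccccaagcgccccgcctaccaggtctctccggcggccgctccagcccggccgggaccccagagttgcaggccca
Start 93845910, Saos-2 only, chr1:93845861-93846160: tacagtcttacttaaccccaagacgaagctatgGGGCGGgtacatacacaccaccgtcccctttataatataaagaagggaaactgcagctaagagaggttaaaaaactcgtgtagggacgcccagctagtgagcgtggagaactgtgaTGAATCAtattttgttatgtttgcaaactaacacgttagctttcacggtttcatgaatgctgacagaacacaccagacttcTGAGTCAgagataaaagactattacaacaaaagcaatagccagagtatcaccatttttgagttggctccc
Start 93680854, both lines, chr1:93680805-93681104: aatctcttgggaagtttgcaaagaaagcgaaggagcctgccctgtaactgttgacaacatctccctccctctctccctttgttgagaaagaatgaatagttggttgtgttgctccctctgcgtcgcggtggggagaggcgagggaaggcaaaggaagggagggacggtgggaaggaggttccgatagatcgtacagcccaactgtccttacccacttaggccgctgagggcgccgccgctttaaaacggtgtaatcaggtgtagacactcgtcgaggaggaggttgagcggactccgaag
Start 93681837, neither line, chr1:93681788-93682087: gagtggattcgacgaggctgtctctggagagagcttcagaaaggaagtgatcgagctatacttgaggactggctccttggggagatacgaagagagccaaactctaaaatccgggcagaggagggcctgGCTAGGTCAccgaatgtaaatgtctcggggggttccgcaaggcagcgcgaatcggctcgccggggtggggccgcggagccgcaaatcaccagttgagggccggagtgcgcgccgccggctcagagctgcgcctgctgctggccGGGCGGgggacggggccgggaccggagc

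The window of 93847219 was the most GC-rich of the 3 outer ones, at 71.7% G or C, with a ratio of observed to expected CpG of 0.84. That of 93848151 had 47.7% and 0.48, and that of 93845910 had 42.7% and 0.59. The shared inner window, at 93680854, had 55.0% and 0.77. Over all 35116 start windows in the table the medians were 58.7% and 0.58. Windows called in Saos-2 only had medians of 65.0% and 0.79, above the values of 93848151 and 93845910. Windows called in both lines had 65.0% and 0.86, and windows called in neither had 52.0% and 0.31. GC-rich sequence was not limited to called windows: those of 93681837 and 93681370 had 64.7% and 71.3% G or C and no hotspot in either line.

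The window of 93845910 held 2 matches to the AP-1 motif and 1 to the GC box. At least 1 AP-1 match occurred in 7.71% of all start windows and at least 2 in 0.515%. The share with at least 2 was counted for the AP-1 motif only, so it cannot be set against other motifs. The other BCAR3 window with an AP-1 match, that of 93775386, was called in neither line. A GC box was found in 45% of all windows and in 4 of the 10 of BCAR3, among them 93847219. A TEAD match, present in 14% of all windows, lay in that of 93848151 and, with 2 matches, in that of 93585162, which was called in neither line. The NRF2 motif, at 13.3% of all windows, was matched at 93681837. No match to the RUNX motif (13.1% of all windows), the ETS motif (4.14%) or the CREB motif (1.85%) lay in any of the 10 BCAR3 windows, and the CCAAT box (34.6%) was matched in 1 of them. The shared window at 93680854 held none of these 8 motifs. E-boxes (CANNTG) were searched too but are not capitalised: they occurred in 68.7% of all windows and in 7 of the 10. AP-1 matches within an NRF2 site could be counted under both motifs. These matches describe letters in the windows and are not evidence of binding.

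At the outer end the Saos-2 signal was made of 4 hotspots within 4 kb. The outermost, at 93847387 to 93848271, was 885 bp wide with a significance of 5.85, given here as the authors' −log10 value. It covered the start at 93848151. It also covered the whole of TRR-TCT1-1, an arginine transfer RNA gene at 93847573 to 93847657. Next to it lay a hotspot at 93847121 to 93847381 (261 bp, significance 4.17), which contained the start at 93847219. The third, at 93845531 to 93846501, was the widest Saos-2 hotspot of the locus, at 971 bp, and the most significant one inside the gene in that line, at 11.0. It contained the start at 93845910. The last of the 4, at 93844359 to 93844523, was 165 bp wide with a significance of 3.54 and overlapped no start window. U2OS had no hotspot at any of these positions.

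**Figure D1:**
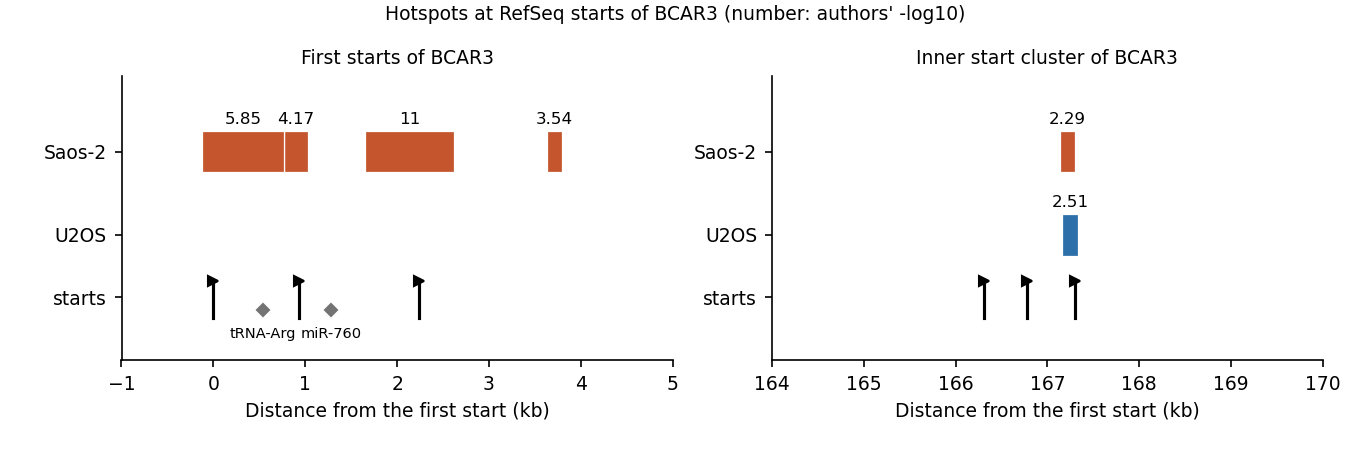
Hotspots at the outer starts (left) and at the inner start cluster (right) of BCAR3. The x axis is the distance in kb from the outermost start in the direction of transcription, bars are hotspots of 1 library per line with the authors' −log10 significance above them, flagged lines are RefSeq starts and diamonds are small RNA genes. Saos-2 has 4 hotspots on the left and U2OS none, while each line has 1 weak hotspot (2.29 and 2.51) at the same inner start.

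Of these 4 Saos-2 hotspots, those of 971 and 885 bp were at percentiles 99.5 and 99.2 of width in the whole list and at percentiles 85.3 and 65.5 of significance. The hotspot of 261 bp was at 56.3 of width and 51.3 of significance, and that of 165 bp at 27.3 and 43.4. U2OS lacked any hotspot from 93798610 to 93879070, a gap of 80.5 kb that reached from 49.5 kb inside BCAR3 to 30.9 kb beyond its outermost start, at the start of DNTTIP2. Saos-2 had 7 unshared hotspots in this gap, which covered 2728 bp. The 3 others among the 7 lay 20 to 34 kb into the gene, were 68 to 218 bp wide and had significances of 1.62 to 3.44. Of all Saos-2 hotspots outside chromosome Y, 2.5% lay in runs of at least 7 unshared hotspots with no U2OS hotspot between them, in 127 runs. The same in U2OS held 9.57% of hotspots, in 592 runs. The length of 7 was taken from the run at BCAR3. That run includes the 4 outer hotspots by which the gene was chosen. Its length and the widths of those hotspots partly restate that choice, and nothing is read from them.

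MIR760, a microRNA gene on the opposite strand at 93846832 to 93846911, lies between the outer hotspots. It overlapped no hotspot in either line; of all miRNA genes 0.68% were overlapped in Saos-2 alone and 2.04% in both lines. In Saos-2 the nearest hotspots were 210 and 331 bp away, on either side. The mature miRNA is printed with its seed, bases 2 to 8, in capitals, as it is the only miRNA of the locus, and no other of 2370 mature human miRNA names in the RefSeq table has this seed.
hsa-miR-760, chr1:93846880-93846899, plus strand: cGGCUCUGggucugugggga
Hotspots overlapped tRNA genes in Saos-2 and not in U2OS for 8.8% of 443 tRNA genes, and TRR-TCT1-1 was among them. A further 14.2% were overlapped in both lines.

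Counted over 10 kb on both sides of both gene ends, hotspots covered 2407 bp at BCAR3 in Saos-2, whereas the U2OS list covered 0 bp. Of these bases 2282 bp were at the outer (5′) end. The other 125 bp, at the 3′ end, came from 2 narrow hotspots of 66 and 59 bp with significances of 1.56 and 1.55, which lie inside the neighbouring gene FNBP1L at 93553050 to 93553115 and 93553138 to 93553196. Of 20037 protein-coding genes, 5.46% had hotspot bases in this window in Saos-2 and none in U2OS, and 13% had the opposite. This is the contrast by which BCAR3 was chosen, and nothing is read from it. With 50 kb in place of 10 kb Saos-2 had 4116 covered bp and U2OS had 1079.

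Many genes have more than 1 start in the table, and combinations of called starts were counted over these. Of 4057 protein-coding genes with at least 2 listed starts, 3.06% had a start called in both lines and another in Saos-2 only, as BCAR3 did, and 5.18% had the same with U2OS only. Only 2 genes (0.0493%) had at least 3 starts in Saos-2 only beside a shared one: BCAR3 and CNPPD1, which was singled out after its values were seen. The hotspots at the outer starts are those by which BCAR3 was chosen, so this count restates that choice and nothing is read from it. The number of starts bears on it too, since only 9 protein-coding genes, BCAR3 included, had at least 10. The table is not complete and lists starts for 15843 of the 20037 protein-coding genes. The 3 outer starts lie within 2.24 kb of each other and are not independent. Over single start windows, 27.1% were called in both lines and 62.2% in neither; Saos-2 alone accounted for 3.61% and U2OS alone for 7.04%.

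The shared inner start was weak in both lines. Its Saos-2 hotspot, 93680856 to 93681019, spanned 164 bp at a significance of 2.29. That of U2OS, 93680820 to 93680993, spanned 174 bp at 2.51. These values were at percentiles 21.2 and 22.5 of the respective lists. The U2OS hotspot contained the start at 93680854 and the Saos-2 hotspot lay 2 bp upstream of it. The other starts of the inner cluster were 0.351 and 0.818 kb from the nearest Saos-2 hotspot and 0.377 and 0.844 kb from the nearest in U2OS. The remaining 4 starts had no hotspot within 1 kb in either line. The nearest of them, 93614097, was 1.04 kb from a Saos-2 and 1.08 kb from a U2OS hotspot.

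Over the gene as a whole, its outer end included, the lines shared some of their sites. Inside the span of BCAR3 Saos-2 had 25 hotspots that covered 8166 bp, and U2OS had 14 that covered 4541 bp. They formed 26 separate sites, of which 12 were shared, 13 belonged to Saos-2 alone and 1 to U2OS alone. The U2OS sites were thus nearly a subset of those of Saos-2. Of the U2OS hotspots in the gene 13 of 14 overlapped a Saos-2 hotspot by at least 1 bp (92.9%, 95% Wilson interval 68.5 to 98.7%). Of the Saos-2 hotspots 12 of 25 overlapped one of U2OS (48.0%, interval 30.0 to 66.5%). Over the whole lists 58.1% of Saos-2 and 46.9% of U2OS hotspots were overlapped, and 41.9% and 53.1% had no overlap. For Saos-2 the interval in the gene includes the overlapped share of the whole list, 58.1%. For U2OS the overlapped share in the gene was above that of the whole list, 46.9%. Both intervals reflect counting error alone and treat adjacent hotspots as independent, which they are not.

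**Figure D2:**
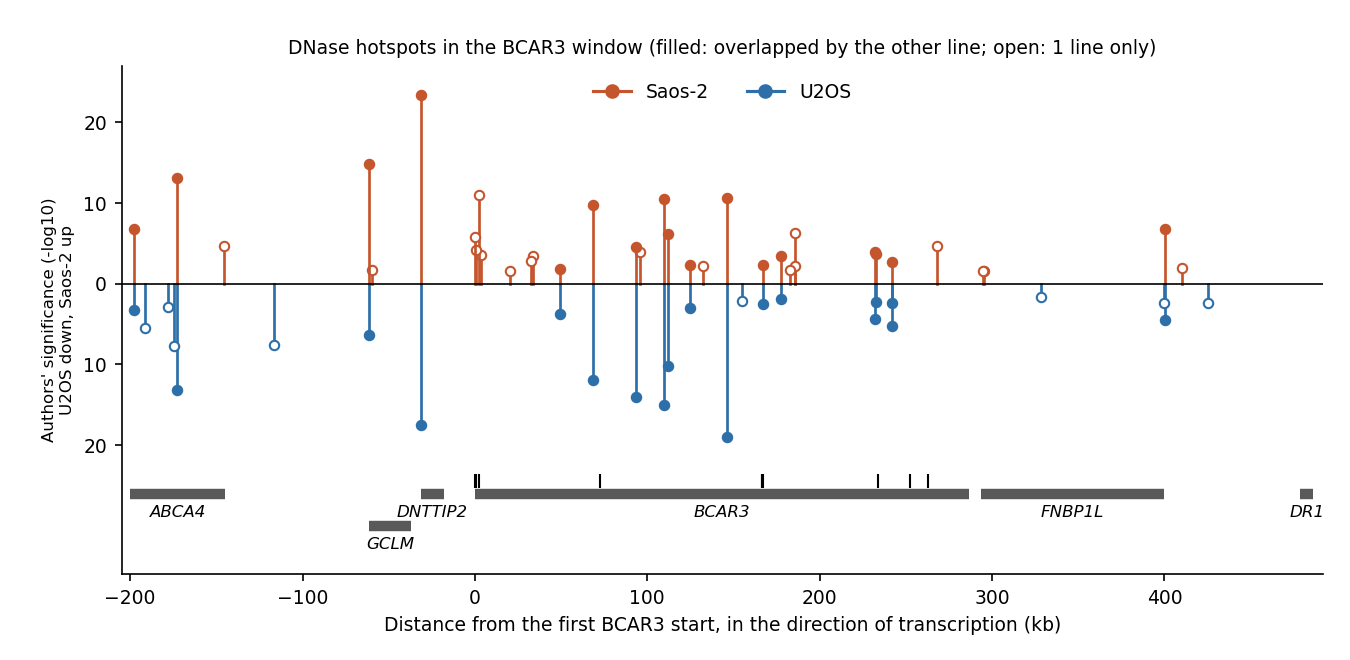
Hotspots of the BCAR3 locus by position. The x axis is the distance in kb from the outermost BCAR3 start in the direction of transcription, the y axis is the authors' −log10 significance with Saos-2 upwards and U2OS downwards, filled points are hotspots overlapped by the other line, open points are called in 1 line only, grey bars are protein-coding genes and ticks are the 10 BCAR3 starts. Open Saos-2 points crowd at the outer starts, while the tallest U2OS points inside BCAR3, at 10.2 to 19.0, are filled.

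Hotspots were also counted by position along the gene. The outer 50 kb contain the 4 hotspots near the 5′ end by which BCAR3 was chosen, so the counts there are a description. In the outer 50 kb Saos-2 had 8 hotspots, 1 of them shared, and U2OS had 1. In the remaining 236 kb Saos-2 had 17 hotspots, 11 of them shared, and U2OS had 13, 12 of them shared. The shared site nearest the outer end, at 93798389 to 93798609, reached 1.79 (Saos-2) and 3.78 (U2OS), and bounds the U2OS gap.

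The strongest shared sites lay 68 to 146 kb into the gene, and none overlapped the window of a listed start. The most significant, at 93701590 to 93702063, reached 10.6 in Saos-2 and 19.0 in U2OS, where it was the highest of the whole locus. It lies within BCAR3 and within the lncRNA LOC102723480, which runs on the opposite strand from 93693151 to 93703655. The pair of sites at 93735771 to 93736119 and 93738078 to 93738756 had 6.18 and 10.5 in Saos-2 and 10.2 and 15 in U2OS. At 93754129 to 93754798 the values were 4.57 and 14, and the hotspot was 289 bp wide in Saos-2 against 670 bp in U2OS. At 93779528 to 93780239 they were 9.73 and 11.9, and these hotspots lay 4.14 kb (Saos-2) and 4.17 kb (U2OS) from the uncalled start at 93775386. All 5 of these sites were more significant in U2OS. Over the genome 62.3% of shared pairs away from starts were, and 44.9% of all shared pairs within 5 Mb of the gene. Per line, percentiles of significance for these 5 sites ranged from 55.3 to 84.3 in Saos-2 and from 78.0 to 91.8 in U2OS.

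Across the 12 shared sites of BCAR3 significance was higher in U2OS at 10. The exceptions were 93615140 to 93615379, with 3.75 in Saos-2 and 2.24 in U2OS, and 93670188 to 93670399, with 3.43 and 1.93. Of 27672 pairs of 1 hotspot in each line over the genome, 62.7% were more significant in U2OS, with 62.3% for pairs away from starts, where 11 of the 12 BCAR3 sites lie. On chromosome 1 it was 57.4% of 2791 pairs. Among the 127 pairs within 5 Mb of the gene it was 44.9%. The significance depends on library depth, which is unknown, so a higher value in a line here and below describes these lists and not the degree of accessibility.

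**Figure D3:**
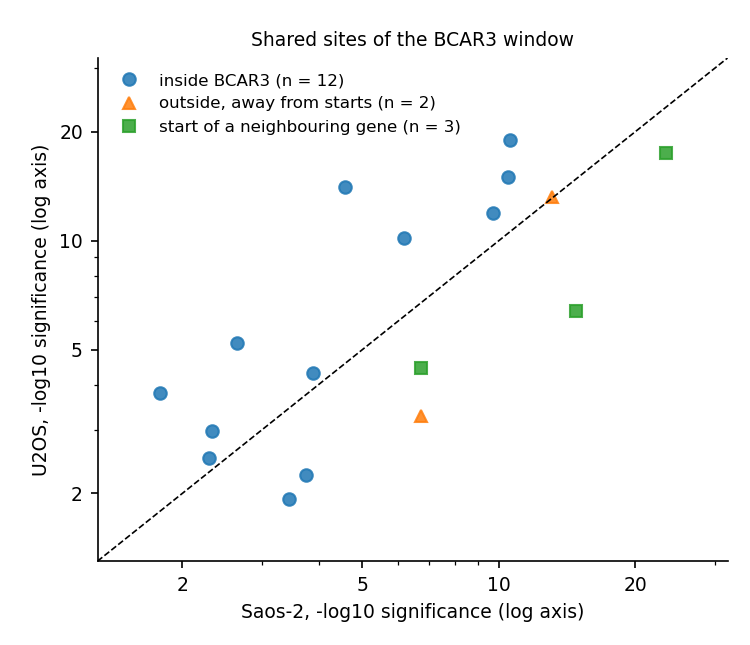
Significance of the 17 shared sites of the locus in Saos-2 (x axis) and U2OS (y axis), as the authors' −log10 values on log axes, with the highest value where a line had more than 1 hotspot in a site. The dashed line marks equal values: 10 of the 12 sites inside BCAR3 lie above it, and the 3 starts of neighbouring genes lie below it.

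Sites called only in Saos-2 were found over the gene body too. The strongest, at 93661919 to 93662462, was 544 bp wide with a significance of 6.36, with a hotspot of 124 bp (2.16) beside it at 93662577 to 93662700. A site at 93580029 to 93580237 (209 bp, 4.70) was the hotspot closest to the 3′ end within the gene. The other 3, at 93665217, 93715672 and 93751976, had significances of 1.69, 2.23 and 3.94. The single U2OS-only site, at 93693395 to 93693540, spanned 146 bp at a significance of 2.15. It began 244 bp after the start of LOC102723480, an lncRNA whose own start window held no hotspot in either line. BCAR3-AS1, the antisense lncRNA at 93591968 to 93600030, had no hotspot in either line.

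The neighbouring genes FNBP1L, DNTTIP2, GCLM and DR1 did not share the difference at the 5′ end. At ABCA4 neither line had a hotspot base within 1 kb of the gene end outside the locus, so it is not compared here. FNBP1L, an actin regulator on the 3′ side of BCAR3, had a hotspot at its start in both lines, with 6.74 in Saos-2 and 4.44 in U2OS. DNTTIP2, a nucleolar protein gene and the next one beyond the outer end of BCAR3, had the highest Saos-2 value of the locus, 23.4, against 17.5 in U2OS. GCLM, which encodes the modifier subunit of glutamate-cysteine ligase in glutathione synthesis, had 14.8 against 6.38. The GCLM hotspot also covers the start of the divergent lncRNA LOC124904221. At DR1, a repressor of transcription by RNA polymerase II whose start is just outside the locus, the values were 14.4 and 11.9. Each of these 4 starts was thus called in both lines and was more significant in Saos-2. Over the genome 64.2% of shared pairs at starts were more significant in U2OS. Of the 127 pairs within 5 Mb of BCAR3, at starts or not, 44.9% were. Those pairs mix starts with other sites, so whether the Saos-2 lead is particular to these starts was not tested.

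Gene for gene, hotspot numbers inside the neighbours were equal in the lines for DR1 (1 and 1), FNBP1L (3 and 3) and DNTTIP2 (1 and 1). GCLM had 2 in Saos-2 and 1 in U2OS. ABCA4, a retinal lipid transporter gene that reaches into the upper flank, had 6 in Saos-2 and 8 in U2OS, of which 3 in each were shared. Its strongest site, at 94020732 to 94021499, reached 13.1 (Saos-2) and 13.2 (U2OS). U2OS had a further hotspot at 94022517 to 94022861 with 7.72, and Saos-2 had none there. Hotspot bases within 10 kb of the ends were present in both lines for each of the 5 neighbours, from 527 to 1093 bp (Saos-2) and from 163 to 787 bp (U2OS). Over all protein-coding genes 63.7% had such bases in both lines, so this is the common state, and BCAR3 was chosen for lacking it. Those of GCLM include the hotspots at the DNTTIP2 start, which lie within 10 kb of an end of GCLM and are counted for both genes. Those of FNBP1L in Saos-2 include the narrow hotspots also counted at the 3′ end of BCAR3. BCAR3 had the most hotspots per length of the genes above 100 kb in the locus in Saos-2, at 8.73 per 100 kb against 2.82 for FNBP1L and 4.68 for ABCA4. In U2OS the order was ABCA4 at 6.23, BCAR3 at 4.89 and FNBP1L at 2.82. These densities rest on a few hotspots each, and the Saos-2 density of BCAR3 includes the outer hotspots by which the gene was chosen.

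**Figure D4:**
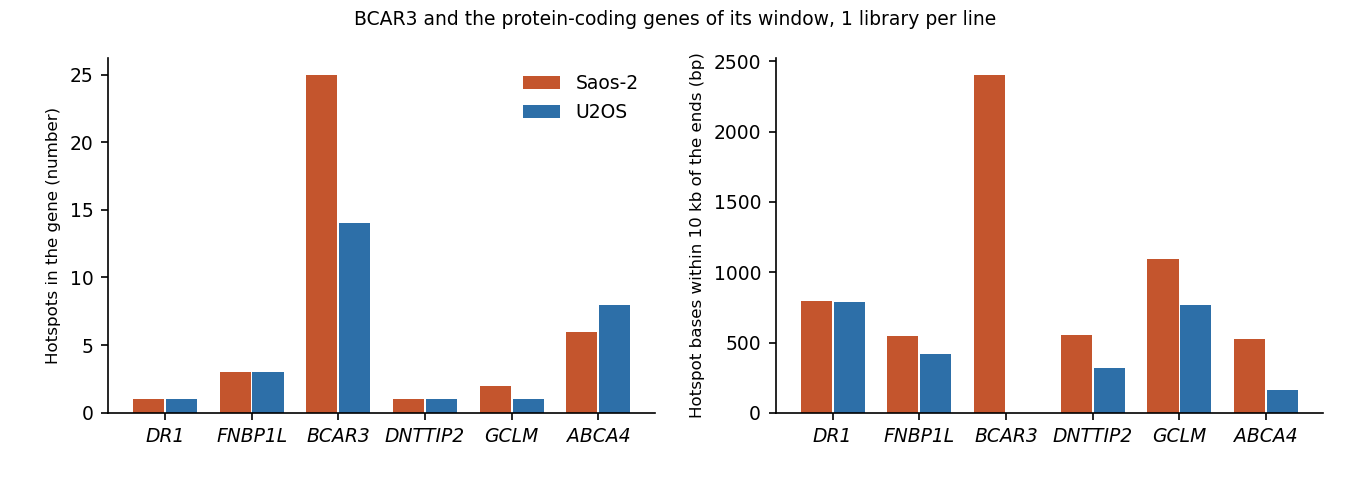
Hotspots in each protein-coding gene that overlaps the locus (left, number over the whole gene) and hotspot bases within 10 kb of its ends (right, bp), as bars for 1 library per line in order of position. BCAR3 is the only one of the 6 genes with no U2OS bar on the right, where Saos-2 reaches 2407 bp, and has 25 against 14 hotspots on the left. The contrast on the right is the one by which BCAR3 was chosen.

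In the flanks outside BCAR3, the lower 200 kb held 4 hotspots in each line with 1 shared pair, at the FNBP1L start. The upper 200 kb held 6 in Saos-2 and 8 in U2OS, with 4 shared in each. The most significant U2OS-only site between genes was at 93964681 to 93965116 (436 bp, 7.58), between GCLM and ABCA4. The outermost hotspots inside the limits of the locus were 93422567 to 93422716 (U2OS, 2.38) and 94045653 to 94045951 (Saos-2, 6.74). Just outside lay the shared DR1 start and a Saos-2 hotspot at 94055518 to 94055753 (4.31).

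The whole region was richer in Saos-2 hotspots. In the 5 Mb below the locus Saos-2 had 141 hotspots and U2OS 94, a ratio of 1.5, and in the 5 Mb above it 151 and 114, a ratio of 1.32. The locus itself had a ratio of 1.35. Chromosome 1 had 0.97 and the whole lists 0.81. The excess over the locus was therefore close to that of its surroundings, and its part in the BCAR3 values was not tested. Inside BCAR3 the ratio was 1.79, from 25 and 14 hotspots. The 25 include the outer hotspots by which BCAR3 was chosen, so this ratio, its rank and the Saos-2 count below partly restate that choice. In the 236 kb of the gene beyond the outer 50 kb the counts were 17 and 13. Among 376 protein-coding genes with at least 20 hotspots over both lines the median ratio was 1, and 8.24% had a ratio at least that of BCAR3. For its size BCAR3 held many hotspots: of 916 protein-coding genes of 200 to 400 kb, 3 in Saos-2 and 51 in U2OS had at least as many, BCAR3 included, and the medians were 4 and 5. U2OS hotspots in the 5 Mb on each side were overlapped by Saos-2 in 57.4% and 55.3% of cases, and Saos-2 hotspots by U2OS in 39.0% and 39.7%.

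Genes with the most similar pattern were found among the 249 protein-coding genes with at least 10 hotspots in the gene in both lines. Of these, 33 had no U2OS hotspot base within 10 kb of their ends and 20 of the 33 had some in Saos-2. BCAR3, chosen by this value, had 2407 bp, and its rank is no result. The next were MSI2 (986 bp), PLCB4 (831 bp), AK5 (663 bp), SPOCK1 (633 bp) and NEDD9 (611 bp). MSI2 encodes an RNA-binding protein, PLCB4 a phospholipase C, AK5 an adenylate kinase, SPOCK1 a secreted proteoglycan and NEDD9 a Cas scaffold protein. PLCB4 held 25 (Saos-2) and 13 (U2OS) hotspots and AK5 held 22 and 12, beside the 25 and 14 of BCAR3. SPOCK1 (15 and 14) and NEDD9 (13 and 12) were nearly equal, and MSI2 had more in U2OS (17 and 19). The likeness of the 5 genes lies in the end bases by which they were picked, and is over 2 libraries only.

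The partners of BCAR3 were looked at with the same measure, hotspot bases within 10 kb of the gene ends, over a list of 30 genes of its family and of Cas signalling. In both lines 22 of them were covered and in neither 2, while 3 were covered in Saos-2 alone and 3 in U2OS alone. Of all 20037 protein-coding genes 63.7% were covered in both lines and 17.9% in neither, beside the 5.46% and 13% in a single line given above. U2OS had more covered bases for 17 and Saos-2 for 11, with a median difference (U2OS minus Saos-2) of 72 bp. Over all protein-coding genes 50.5% had more in U2OS and 31.4% in Saos-2, with a median of 6 bp.

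Among the relatives of BCAR3, SH2D3C was covered over 1617 bp (Saos-2) and 554 bp (U2OS), and SH2D3A over 0 bp in both. Of the Cas scaffolds, BCAR1 had 67 bp (Saos-2) and 243 bp (U2OS), and 2 of its 5 listed starts were called in both lines. EFS had 63 and 304 bp and CASS4 431 and 800 bp. NEDD9 had 611 bp in Saos-2 and none in U2OS, with 1 of its 3 listed starts called in both lines and the other two in neither. The other genes covered in Saos-2 only were EGFR, the epidermal growth factor receptor (257 bp), and PAK1, a kinase downstream of RAC1 (194 bp). Of the 2 listed starts of EGFR 1 was called in Saos-2 only and the other in neither line. The listed start of PAK1 was called in both lines, so a gene without covered bases at the ends of its span can still have a called start inside it. The genes covered in U2OS only were 3 kinases: SRC (399 bp), its relative YES1 (895 bp), whose listed start was also called in U2OS only, and focal adhesion kinase PTK2 (189 bp). ESR1, the oestrogen receptor, had no hotspot base near its ends in either line.

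Of 6 osteoblast genes, all (ALPL, COL1A1, COL1A2, RUNX2, SP7 and SPARC) had hotspot bases near their ends in both lines, from 391 to 947 bp in Saos-2 and from 118 to 2280 bp in U2OS. With 63.7% of all genes covered in both lines, and both lines from osteosarcoma, this does not check which list belongs to which label. Genes of other lineages were not all bare. PTPRC had 0 bp near its ends in both lines, but 4 (Saos-2) and 5 (U2OS) hotspots inside the gene. EPCAM had 243 bp (Saos-2) and 0 bp (U2OS) near its ends, and CD3E 112 and 266 bp, and neither had a hotspot inside the gene. The depth of sequencing is not known for either library, and a site that was not called may still be cut by DNase I below the threshold.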

How the data were processed

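DNase-seq of Saos-2 and U2OS cells was used as 2 deposited lists of hotspots, 1 list for the single library of each line. Per the submitters' processing notes, Trimmomatic 0.38, BWA 0.7.15 and hg38 were used; the hotspot caller, read filters and depth are not given in the sources used here. The authors' −log10 significance, capped at 100, has no header; its lowest value, 1.30, is the −log10 of 0.05. The deposited score differs from 10 times that value by at most 0.5 and was not used.

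Hotspots were overlapped by at least 1 bp in Python 3.11.15 with pandas 2.3.3, checked with bedtools 2.31.1 and tested on simulated data. Genes and starts came from RefSeq tables on GRCh38.p14, the hg38 primary assembly. The members and gene lists were chosen with earlier results of these data known. Named are BCAR3, protein-coding neighbours, non-coding genes of the locus with a hotspot near an end, list genes covered in 1 line only with BCAR1 and the family members, the 5 genes of most similar pattern, the 5 most significant and the widest hotspots per line and those near the gene ends; other hotspots inside the gene, MIR760 and BCAR3-AS1 were added after their values were seen. Shares have Wilson 95% intervals. Alternatives were stricter overlap, merging, the top 50%, lists of equal length and other windows.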

Additional observations from a re-analysis of the deposited data

How the results depend on the processing

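No paired analysis was possible because each line was 1 library, so leaving out replicates could not be done either. Of 48 recomputed values 35 stayed within 1.5 times the value as deposited or, for shares, within its Wilson interval, and 13 did not. With the top 50% of each list the locus held 16 (Saos-2) and 12 (U2OS) hotspots, and the gene 10 and 6. With 100 kb flanks U2OS had 17 hotspots, of which 88.2% were overlapped. With 500 kb flanks there were 60 and 46 hotspots, covering 19576 and 14067 bp. At the gene ends Saos-2 had 1116 bp within 1 kb, and 4116 bp within 50 kb against 1079 bp in U2OS. These changes follow from fewer hotspots or other window lengths. The 0 bp of U2OS within 10 kb of the ends cannot change when hotspots are merged or removed or the window is narrowed, so those settings say nothing about it. Lists of equal length keep every Saos-2 hotspot, so the Saos-2 counts and covered bases could not change there. Values fixed in these ways are among the 35. In the gene Saos-2 had 23 hotspots against 13 after merging and 25 against 11 with equal lists. Unknown depth limits every absent call.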
